A study of Bos taurus with 6 samples.

Results

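The secreted Wnt antagonists FRZB, SFRP1, SFRP4, SFRP5 and DKK1 were followed in bovine marrow-derived mesenchymal stem cells (MSCs) grown in agarose. All probe sets (groups of short probes that read 1 transcript) with 1 of these names as their single gene symbol were taken. This gave 6 probe sets for the 5 genes, DKK1 having 2, out of 24016 probe sets and 9155 named genes. The series has 6 arrays, 1 for each condition. The defined medium either lacked transforming growth factor beta 3 (TGF-beta3), with arrays at days 3, 21 and 42, or contained it, with arrays at days 21 and 42, all unloaded. The sixth culture had TGF-beta3 for 42 days, with dynamic compression over the last 21. TGF-beta3 is used to drive MSCs towards cartilage cells, and the comparisons asked how the growth factor, time and compression altered transcripts. Animals, their number and any pooling are not given in the sources used here.

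Wnt proteins are secreted signals that bind Frizzled receptors and the co-receptors LRP5 and LRP6, and the best known branch stabilises beta-catenin, which acts with TCF and LEF factors on target genes. Secreted frizzled-related proteins (SFRP1, SFRP4, SFRP5 and FRZB) carry a Frizzled-like cysteine-rich domain and can bind Wnt proteins outside the cell. DKK1 acts differently, by binding the co-receptors. Wnt antagonists are known from cartilage and from marrow stroma, where Wnt signals bear on the choice between bone, cartilage and fat cells.

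Signals are linear values per probe set. A floor was set at a signal of 15.1, and values under it were raised to it before taking log2, so a difference with 1 side under the floor is a bound, written "at least". "Higher" and "lower" mean a difference of at least 2-fold between 2 arrays, with no test, or are followed by the fold where it is smaller. "Rose" and "fell" mean an adjusted p under 0.05 in a limma fit of TGF-beta3 against none on the 4 unloaded arrays of days 21 and 42, with a term for day. Fits that leave out 1 of these arrays have no day term, a change that by itself took the adjusted p of FRZB to 0.297, of SFRP5 to 0.323 and of DKK1 to 0.0862 (limma). Each condition had 1 array, so the spread between cultures is unknown and the number of arrays limits every value. In these bulk samples fewer cells of a type and less RNA per cell cannot be told apart.

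TGF-beta3 split the 5 genes. SFRP1, SFRP4 and FRZB fell and DKK1 and SFRP5 rose over days 21 and 42. The counts of 3 and 2 stand beside a background of 7.7% of 6835 genes that fell and 7.11% that rose (7.33% and 5.84% of probe sets, 13.2% in either direction), and the genes were chosen with these results known. SFRP4 and SFRP1 were low on every array with TGF-beta3 and high on every array without it. DKK1 had the opposite pattern. For these genes and those below, the share of all genes that separate the media in this way was not counted. SFRP5 was past 2-fold at day 42 alone, and FRZB differed more at day 21 than at day 42.

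**Figure D1:**
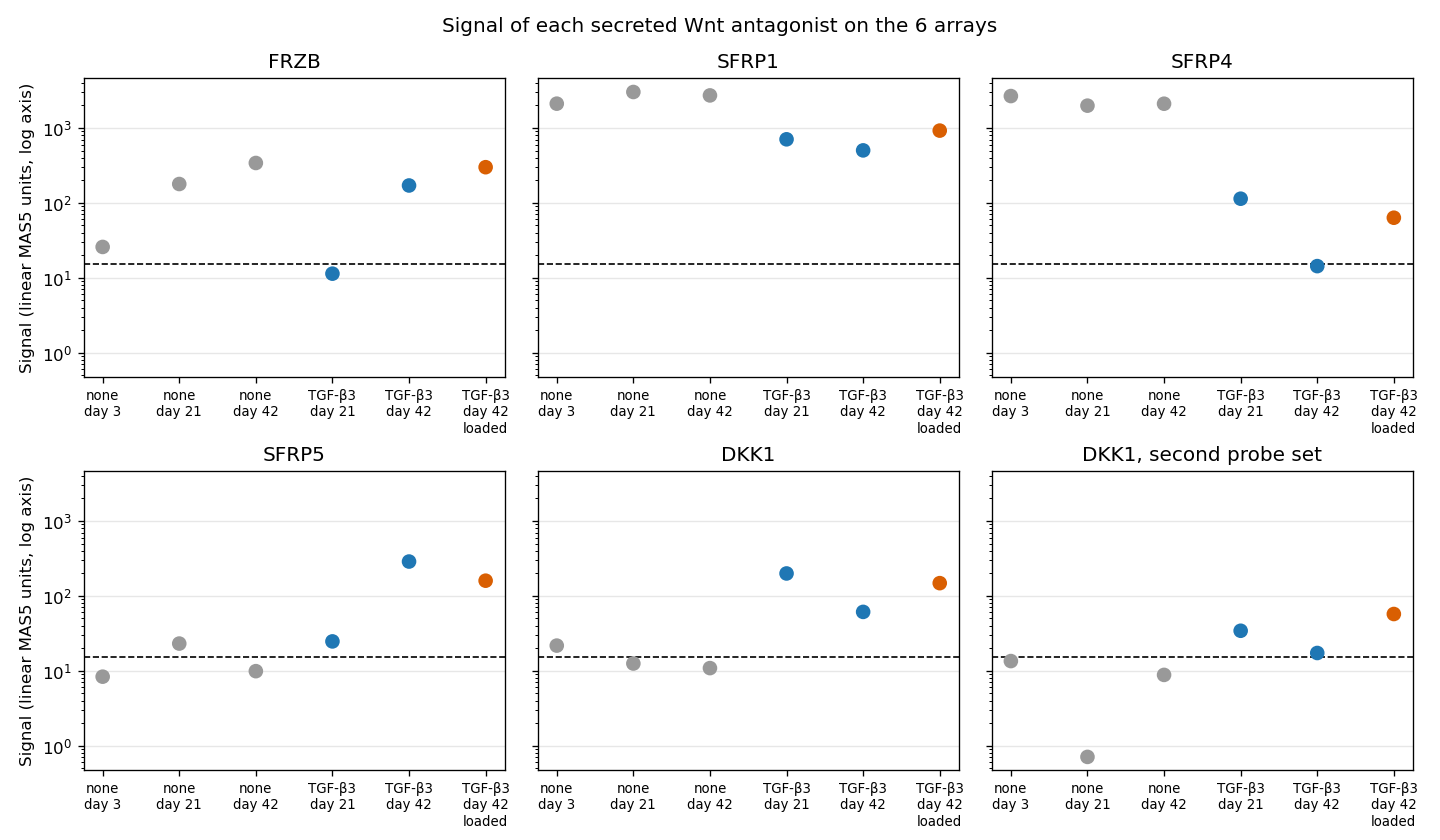
Signal (log axis) of each of the 6 probe sets on the 6 arrays, 1 point per array, with grey for none, blue for TGF-beta3 and orange for TGF-beta3 with loading, and the floor of 15.1 as a dashed line. SFRP1 and SFRP4 separate the arrays by medium, while SFRP5 is bright only on the day 42 arrays with TGF-beta3.

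SFRP4 had the largest difference of the 5. Without TGF-beta3 its signal was 2673 at day 3, 1989 at day 21 and 2111 at day 42. With it the signal was 114 at day 21, 14.3 (under the floor) at day 42 and 63.3 on the loaded day 42 array. The groups did not overlap: the lowest array without the growth factor was far above the highest with it, and the 3 arrays without it lay close together. At day 21 the gene was 17.5-fold lower with TGF-beta3, and the day 42 difference was at least 139-fold. The mean log2 difference was -5.63 ± 0.45 (SE; 95% interval -6.53 to -4.72; adjusted p = 2.78e-14 by limma), a bound because of the floored array. The differences at day 21 (log2 -4.13) and day 42 (-7.12, a bound) both lay outside this interval. Its width rests mainly on the spread pooled over probe sets, and the mean describes neither day. Without the day 42 array with TGF-beta3 the mean was -4.17, and without the day 21 array with it -7.08, both past the threshold.

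SFRP1 showed the same separation with a smaller difference. Its signal was 2115, 3028 and 2726 at days 3, 21 and 42 without TGF-beta3. With the growth factor it was 707 at day 21, 503 at day 42 and 923 under loading. All 6 values were well above the floor, so these are measured differences and no bounds, and the order again put the 3 arrays without TGF-beta3 above the 3 with it. SFRP1 was 4.29-fold lower at day 21 and 5.42-fold lower at day 42, with a mean log2 difference of -2.27 ± 0.34 (95% interval -2.95 to -1.59; adjusted p = 1.1e-06 by limma). The difference was alike on both days, at log2 -2.10 and -2.44. Its likeness to SFRP4 in order is a description of 6 arrays, over which the floored log2 signals of both had a Pearson r of 0.96.

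FRZB, also called sFRP3 and first purified from cartilage, did not sort the arrays by medium. Its signal without TGF-beta3 went from 25.8 at day 3 to 179 at day 21 and 341 at day 42. With TGF-beta3 it was 11.3 at day 21, under the floor, but 171 at day 42 and 299.7 under loading. The groups overlapped, as both day 42 arrays with the growth factor were above the day 3 array without it. At day 21 FRZB was at least 11.8-fold lower with TGF-beta3, whereas at day 42 the difference was log2 -1.0, just short of the 2-fold limit. The mean was -2.28 ± 0.61 (95% interval -3.50 to -1.05; adjusted p = 0.00671 by limma), also a bound. The differences at day 21 (log2 -3.56, a bound) and day 42 both lay just outside this interval, which rests mainly on the pooled spread. This fall rests on the day 21 array with TGF-beta3, without which the mean was -0.53 (adjusted p = 0.385 by limma). The call was also lost without either array that lacked TGF-beta3 (0.268 and 0.683), without the variance trend (0.0686) and with a higher floor (0.0692 at the 60th percentile).

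DKK1 rose, and was more than 2-fold higher on both days. Its brighter probe set read 21.7, 12.5 and 10.8 at days 3, 21 and 42 without TGF-beta3, the last 2 under the floor. With TGF-beta3 the signal was 199 at day 21, 61.1 at day 42 and 148 under loading. Every array with the growth factor was above every array without it. With TGF-beta3 the day 21 signal was at least 13.2-fold higher and the day 42 signal at least 4.03-fold, with a mean log2 difference of 2.86 ± 0.71 (95% interval 1.43 to 4.30; adjusted p = 0.00342 by limma). It entered the fit only through the arrays with TGF-beta3, since the other 2 lay under the floor, and the mean is a bound. The call was lost without the day term, and without either array that lacked TGF-beta3 (adjusted p = 0.275 and 0.307 by limma).

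The dimmer DKK1 probe set gave the same order of media. It read 13.5, 0.706 and 8.80 without TGF-beta3, all under the floor, and 34.2, 17.3 and 57.2 with it at day 21, at day 42 and under loading. Its mean log2 difference was 0.68 ± 0.52 and did not pass (adjusted p = 0.429 by limma). When the loaded array replaced the unloaded one, it was 1.55 and passed (adjusted p = 0.0492 by limma). Within the TGF-beta3 arrays the probe sets differed in order, the brighter one being highest at day 21 and the dimmer one under loading.

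SFRP5 was bright only late and with TGF-beta3. Its signal was 8.33 at day 3, 23.1 at day 21 and 9.87 at day 42 without the growth factor, near or under the floor each time. With it the signal was 24.7 at day 21, 287 at day 42 and 159.5 under loading. At day 21 the arrays with and without TGF-beta3 differed by log2 0.10, whereas at day 42 SFRP5 was at least 19.0-fold higher (log2 4.25). The mean of 2.17 ± 0.76 (a bound; 95% interval 0.65 to 3.69; adjusted p = 0.0473 by limma) lies just past the threshold and describes neither day. Leaving out the TGF-beta3 array of day 42 gave 0.40 (adjusted p = 0.736 by limma), and leaving out that of day 21 gave 3.94 (4.34e-06). It also missed the threshold without either array that lacked TGF-beta3 (0.467 and 0.694), without the variance trend (0.166) and with the arrays scaled to the hybridisation spikes (0.0991). The day 42 difference, a bound, exceeded the day 21 one by at least log2 4.15. This change between days is the residual of SFRP5 in the fit, whereas its SE of 0.76 comes mainly from the spread pooled over probe sets. Without the filter on low values, where the prior was weaker, the SE was 1.72 (adjusted p = 0.7 by limma).

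**Figure D2:**
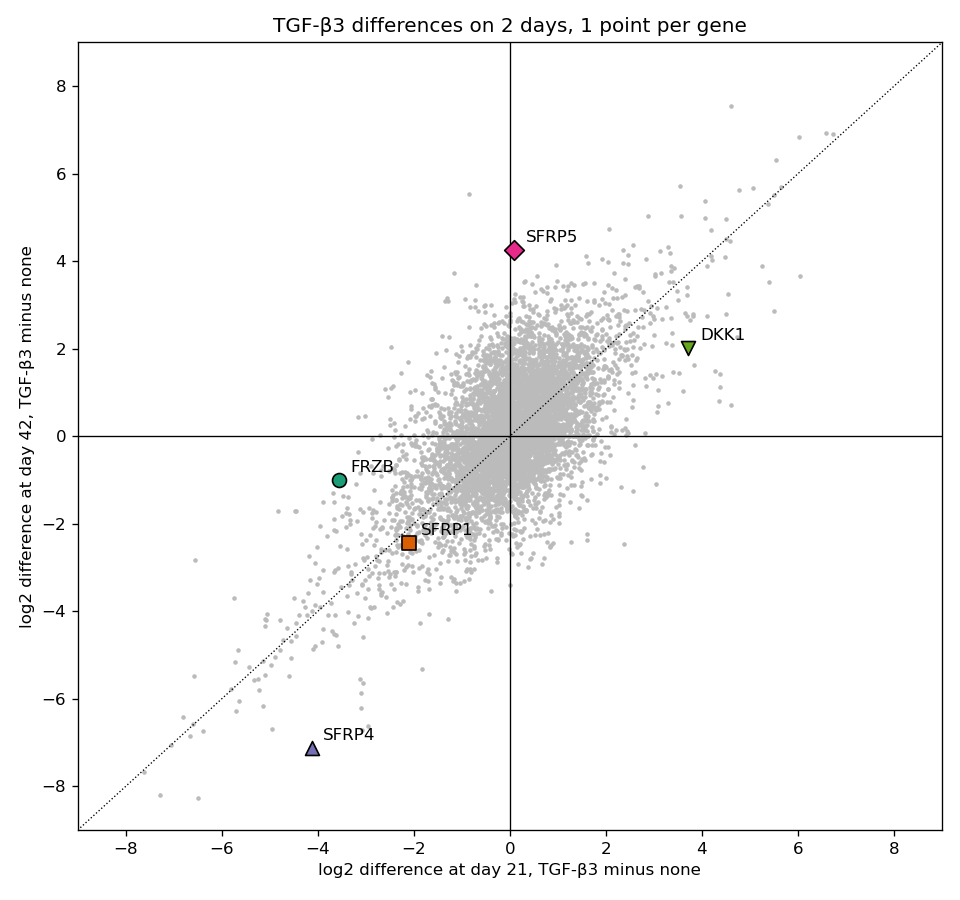
TGF-beta3 minus none as log2 difference at day 21 (x axis) and day 42 (y axis), with 1 grey point per gene for 6835 genes and the 5 antagonists marked; the dotted line marks equal differences. SFRP1 lies near the line at -2.10 and -2.44, SFRP5 far above it at 0.10 and 4.25, and FRZB above it at -3.56 and -1.0.

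By the size rule alone, 3 of the 5 were lower with TGF-beta3 at day 21 (SFRP4, FRZB and SFRP1), against 14% of genes, and DKK1 was higher, against 14.3%. At day 42 SFRP4 and SFRP1 were lower, against 15.7% of genes, and SFRP5 and DKK1 higher, against 25.5%. The hybridisation spikes, foreign transcripts added in fixed amounts, differed by log2 0.30 between the day 21 arrays and by 1.32 between the day 42 arrays, higher with TGF-beta3. Scaled to the spikes, the day 42 differences were log2 -3.76 for SFRP1, -2.32 for FRZB and 1.17 for DKK1, and bounds of -7.64 for SFRP4 and 3.44 for SFRP5. All kept their direction, and FRZB passed the 2-fold limit on this scale. The background moved with it: 6.41% of genes were then higher and 51.6% lower at day 42, and 9.95% and 20% at day 21. The fit on this scale called 225 probe sets as risen and 1302 as fallen, beside 866 and 1088.

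Dynamic compression went with differences of 1.76-fold to at least 4.18-fold. Of the 5 genes 2 were at least 2-fold higher on the loaded than on the unloaded day 42 array, against 8.41% of genes, and none was lower, against 7.41%. They were SFRP4 (63.3 against 14.3, at least 4.18-fold) and DKK1 (148 against 61.1, 2.42-fold), whose second probe set was 3.32-fold higher. SFRP1 was 1.84-fold and FRZB 1.76-fold higher, both short of the limit, and SFRP5 was 1.80-fold lower. The spikes differed by log2 -0.33 between these arrays, and scaled to them SFRP1 and FRZB passed the limit at log2 1.20 and 1.14, where 14% of genes were higher and 2.67% lower. For SFRP1 the loaded array stood above both other TGF-beta3 arrays but below all 3 without the growth factor. The unloaded day 42 array also serves the comparison with medium lacking TGF-beta3, so these differences are not independent of that one.

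**Figure D3:**
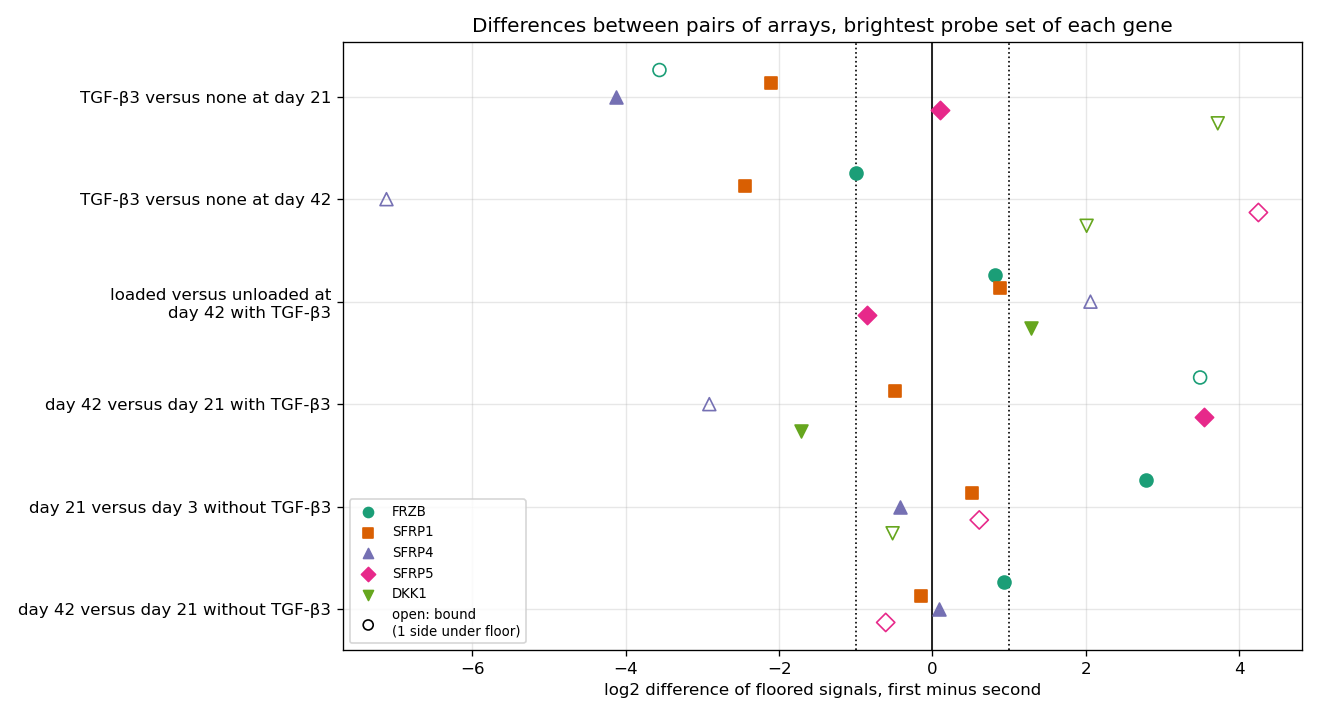
Log2 difference of the brightest probe set of each gene in the 6 comparisons of 2 arrays, first minus second, with open symbols for bounds and dotted lines at a log2 of 1 and -1. Under loading FRZB, SFRP1, SFRP4 and DKK1 lie right of 0 and SFRP5 left of it.

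Time in culture separated the genes differently in the 2 media. With TGF-beta3, from day 21 to day 42, FRZB was at least 11.3-fold and SFRP5 11.7-fold higher, against 19.7% of genes. SFRP4 was at least 7.51-fold and DKK1 3.26-fold lower, against 11.1%, while SFRP1 was 1.41-fold lower. The spikes differed by log2 1.19 between these arrays, higher at day 42. Scaled to them, 3.17% of genes were higher and 48.6% lower, and SFRP1 joined the lower genes at log2 -1.68, while FRZB and SFRP5 stayed higher. In medium without TGF-beta3, FRZB was 6.93-fold higher at day 21 than at day 3 and was the only one of the 5 past the limit (7.03% of genes higher, 4.72% lower). SFRP1 was 1.43-fold higher and SFRP4 1.34-fold lower there, and SFRP5 was at least 1.52-fold higher. From day 21 to day 42 without TGF-beta3 none of the 4 genes above the floor was past the limit (3.83% of genes higher, 5.49% lower), FRZB coming closest at 1.91-fold higher. DKK1 was under the floor on both of those arrays.

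Some markers of other cell types differed between the media, and others did not. Fat cell markers (8 on the array) had summed signals of 5073 to 16260 where TGF-beta3 was absent and 473 to 928 where it was present, and all 6 tested fell. Of these, ADIPOQ and CIDEC entered the fit only through the arrays without TGF-beta3. Macrophage and blood cell markers (9 on the array) summed to between 246.5 and 597 without it and 62.7 and 140.0 with it. Of the 7 tested 3 fell (CD68, CD53 and AIF1), which entered the fit only through the arrays without TGF-beta3. PTPRC, CD14 and TYROBP were lower on their brightest probe sets but did not pass (log2 -1.67, -1.07 and -0.88). CSF1R went the other way without passing (log2 0.58, a bound, adjusted p = 0.507 by limma), and ITGAM was under the floor on every array. FRZB without TGF-beta3 went up (25.8, 179, 341) as the fat cell sum did, from 5073 at day 3 to 13590 at day 21 and 16260 at day 42, and as the macrophage and blood cell sum did (246.5, 463.1, 596.9). With TGF-beta3 at day 42 the fat cell sums were 928.2 unloaded and 778.5 loaded, below the day 3 sum, and FRZB read 171 and 299.7, above its day 3 value. Their part in the falls of SFRP1, SFRP4 and FRZB was not tested. Cartilage markers (8 on the array) summed to between 8205 and 10580 without and between 35300 and 61090 with TGF-beta3, and all 8 rose. Their part in the rises of DKK1 and SFRP5 was not tested, and CHAD entered the fit only through the arrays with TGF-beta3. Among smooth muscle markers 4 of 5 rose, DES entering the fit only through the arrays with TGF-beta3, and 1 fell. Of 7 endothelial markers on the array 2 were tested: ERG rose and TEK did not pass (log2 -0.37, adjusted p = 0.746 by limma). PECAM1, CDH5, VWF, KDR and TIE1 did not enter the fit. Neither of the 2 bone markers tested passed on its brightest probe set. A second IBSP probe set did, at log2 4.82 (adjusted p = 4.07e-07 by limma). It read 1.34 and 11.5 without TGF-beta3 at days 21 and 42, under the floor, and 180 and 1025 with it. This probe set also entered the fit only through the arrays with TGF-beta3. Of 12 marrow stromal cell markers, not all of them particular to MSCs, between 8 and 11 were above the floor on each array and LEPR on none. Of 11 tested 1 rose and 4 fell. Among those that fell, VCAM1 and CXCL12 entered the fit only through the arrays without TGF-beta3.

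The rest of the Wnt pathway was read from lists fixed with earlier results known. Of 53 further Wnt genes on the array 37 were tested, of which 4 rose and 7 fell, 29.7% against 14.8% of all genes. Their median log2 difference was 0.39 beside 0.13 for all genes tested. Other secreted modulators numbered 11, of which 5 were tested. SOST, which did not enter the fit, was higher by size on the unloaded day 42 array with TGF-beta3. This held against day 42 without TGF-beta3 and against day 21 with it. IGFBP4 did not pass (log2 1.15, adjusted p = 0.323 by limma). Its day 21 signals were 42.1 without and 158 with TGF-beta3. At day 42 they were 29.8 and 39.3, and the loaded array read 125. RSPO3, a secreted R-spondin that strengthens Wnt signals, fell: it read 54.2 and 82.1 without TGF-beta3 at days 21 and 42 and lay under the floor at day 3 and on all 3 arrays with it (mean log2 -2.14 ± 0.66, a bound, adjusted p = 0.0207 by limma). It entered the fit only through the arrays without TGF-beta3. GPC4, a cell surface proteoglycan that binds Wnt proteins, rose (147 to 370.4 at day 21, 56.6 to 182 at day 42). DKK3, a relative of DKK1 chosen after its values were seen, read between 863 and 1562 on its brighter probe set and did not pass (log2 0.39 ± 0.34, adjusted p = 0.497 by limma). Its second probe set did, at 1.03 (0.0337). SFRP2, the remaining frizzled-related gene on the array, was above the floor on 1 array, at 20.1 on the unloaded day 42 array with TGF-beta3.

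The receptor list, which also holds MESD and RNF43 that are not receptors themselves, had 10 genes on the array. Of these 5 were tested, MESD among them, 3 fell and none rose. FZD10 and LRP5, which did not enter the fit, were at least 2-fold higher with TGF-beta3 at day 42. FZD4, a Frizzled receptor, read 335 and 227 without TGF-beta3 at days 21 and 42 and 62.3 and 5.10 with it, with a mean log2 difference of -3.17 ± 0.64 (a bound, adjusted p = 0.000259 by limma). FZD1 was 2.19-fold and 2.24-fold lower, and LGR4, a receptor for R-spondins, 2.54-fold and 2.69-fold. Their second probe sets did not pass (log2 -0.98 for FZD1 and -1.33 for LGR4, adjusted p = 0.318 and 0.142 by limma). That of FZD4 lay under the floor on all arrays. Taking medians across probe sets, FZD4 and LGR4 missed the threshold (adjusted p = 0.0512 and 0.0707 by limma) and FZD1 kept its call (0.0236). ROR2, a receptor for Wnt proteins outside the beta-catenin branch, did not pass and went opposite ways on the 2 days (log2 0.83 and -1.12). Few ligands were measured: 4 ligand or ligand secretion genes were on the array and 2 were tested. Neither WLS, the carrier that brings Wnt proteins to the cell surface, nor WNT2B passed (log2 0.52 and 0.73).

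Inside the cell 19 of 22 genes were tested, of which 2 rose and 1 fell. LEF1, a transcription factor that works with beta-catenin and is also a known Wnt target, read 28.6 and 15.5 without TGF-beta3 at days 21 and 42 and 250.3 and 291 with it. It stood at 363 under loading and at 47.9 at day 3, so the media did not overlap. Its mean log2 difference was 3.68 ± 0.68 (adjusted p = 6.43e-05 by limma). The kinase CSNK1D rose on the brightest of its 4 probe sets, but the other 3 did not pass, and the median of all 4 was log2 0.67 (adjusted p = 0.513 by limma). PRICKLE1, of the planar polarity branch, fell on its brightest probe set, but the median of its 4 probe sets was log2 0.23 higher. Of 9 Wnt target genes tested, which include LEF1, 2 rose and 2 fell. CCND1, a cell cycle gene, rose (12.5 to 51.3 and 18.6 to 86.5). CCN5 fell, from 502 to 10.3 and from 419 to 25.3 (mean log2 -4.55 ± 0.63, a bound, adjusted p = 2.16e-07 by limma), as did the hyaluronan receptor CD44. AXIN2, a widely used target of the beta-catenin branch, was under the floor on all 6 arrays. Of 12 TGF-beta target genes 7 rose and none fell, led by TGFBI (log2 4.15 ± 0.37), INHBA, TAGLN and COL1A1, and LTBP2 was lowest at -1.92 (adjusted p = 0.0586 by limma). PMEPA1, among the 7, entered the fit only through the arrays with TGF-beta3. LTBP2 passed as a fall in 7 of 17 alternatives, among them quantile normalization (0.0443), median centring (0.0329) and spike scaling (0.0271). On the spike scale the rises of COL1A1 (adjusted p = 0.161 by limma) and TAGLN (0.0969) did not pass. By size LTBP2 was lower on both days and ID2 at day 21.

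**Figure D4:**
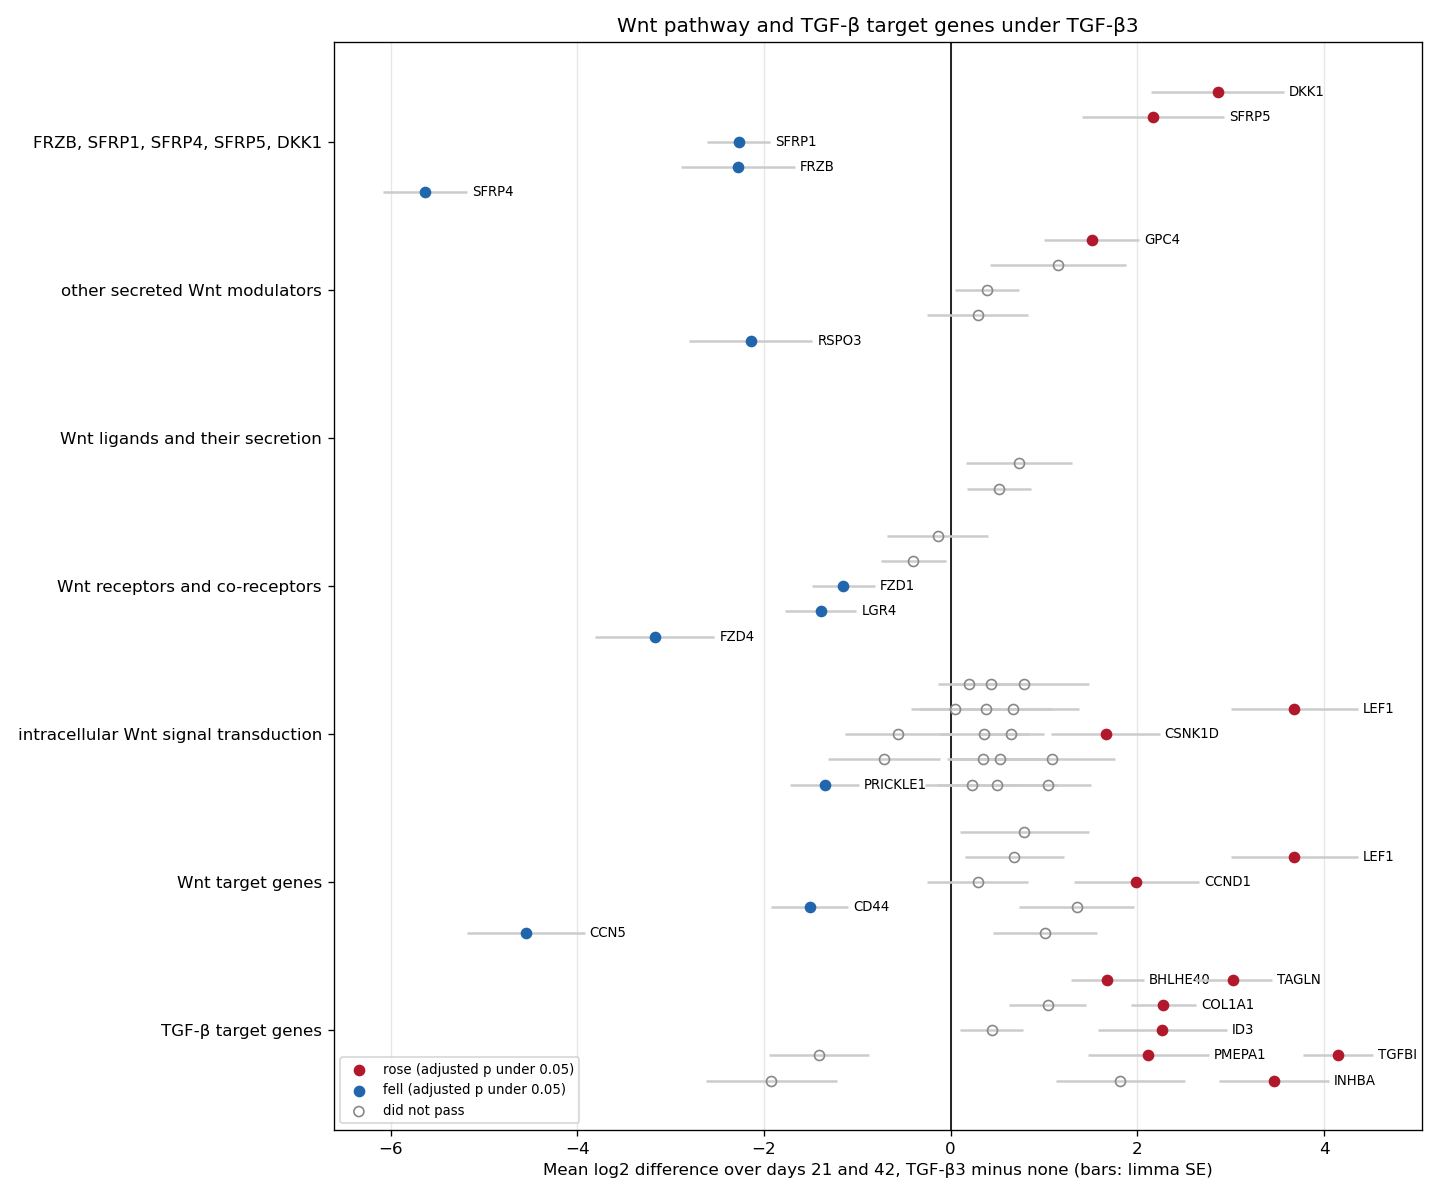
Mean log2 difference over days 21 and 42, TGF-beta3 minus none, with limma standard errors, for the 5 antagonists, 5 Wnt lists and the TGF-beta target list; filled points passed the test (red rose, blue fell). LEF1 stands in 2 lists, and SFRP4 at -5.63 lies lowest of all genes shown.

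Of the Wnt genes, LEF1 and CCN5 passed in 16 of 17 alternatives and RSPO3 in 11 of 13. FZD4 passed in 12 of 17, FZD1 in 11, CD44 in 10, LGR4 in 9, GPC4 in 8 and CSNK1D in 6, and CCND1 in 5 of 15.

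The genes most like each antagonist over the 6 arrays were found by Pearson r of floored log2 signal among 1476 variable genes. With 6 arrays a high r is common: 168 genes had an r over 0.9 with SFRP1, 164 with SFRP5, 160 with SFRP4 and 108 with DKK1, but 9 with FRZB. SFRP4 was nearest to CRISPLD2 (r = 0.996), to the basement membrane protein NID1 (0.991) and to the receptor CD40 (0.990). NID1 read 1468, 1487 and 1606 without TGF-beta3 at days 3, 21 and 42 and 176, 15.2 and 53.3 with it at day 21, at day 42 and under loading. SFRP1 was nearest to CCDC82 (0.995), GGTA1 (0.993) and NFKBIZ, a regulator of NF-kB (0.992). FRZB was nearest to the adiponectin receptor ADIPOR2 (0.981), to SREBF1, a driver of lipid synthesis (0.961), and to the fatty acid oxidation enzyme ACADS (0.951). SREBF1 read 148, 414 and 541 without TGF-beta3 and 93.1, 246 and 408 with it. DKK1 was nearest to UBE2C, which works in mitotic exit (0.987), to the matrix protein THBS4 (0.986) and to LPCAT1, a phospholipid enzyme (0.983). SFRP5 was nearest to ABHD17A (0.993), ASPSCR1 (0.992) and the junctophilin JPH1 (0.991).

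**Figure D5:**
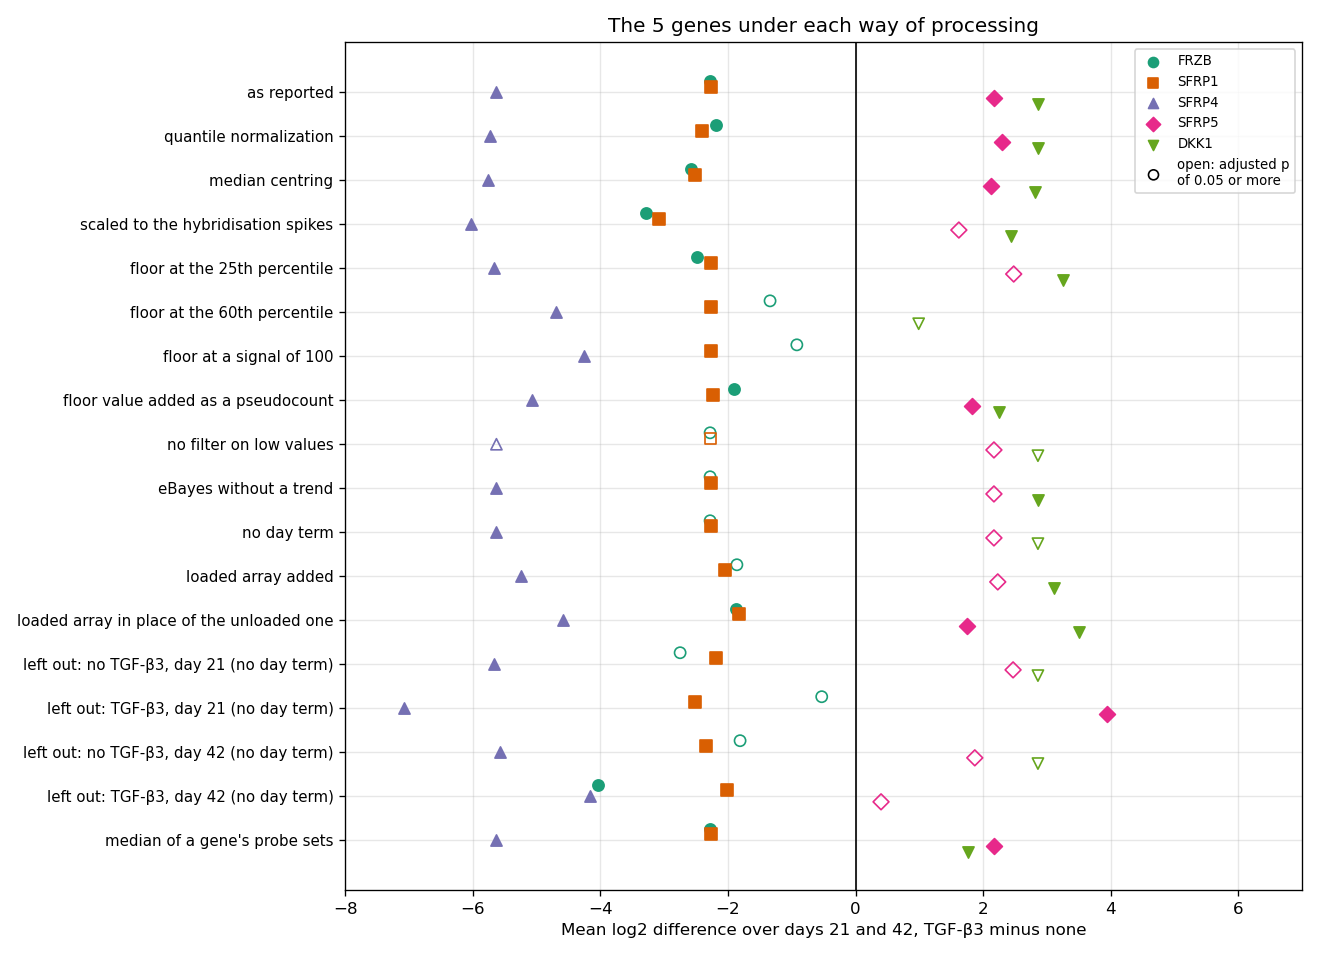
Mean log2 difference over days 21 and 42 of the 5 genes as reported and under 17 alternatives, with open symbols where the adjusted p was 0.05 or more; points are missing where a gene did not enter the fit. SFRP1 stays between -3.08 and -1.83 and SFRP4 between -7.08 and -4.17, whereas SFRP5 runs from 0.40 to 3.94.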

How the data were processed

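Total RNA from 6 cultures was amplified linearly and hybridised to Affymetrix bovine arrays, per the labels' protocols. Each number the authors deposited is a linear intensity for 1 probe set, and the submitters' processing notes name MAS5; its version is not given in the sources used. After trimming 2% at each end the mean was 150.0 to 150.1 on every array. The arrays had median signals of 22.3 to 34.9 and spike medians of 2618 to 7304, the highest on the unloaded day 42 array with TGF-beta3. From 24128 probe sets 112 controls were left out. Symbols came from the platform annotation (13292 probe sets with 1 symbol, 86 with several, 10638 unnamed here), and all 13263 single-symbol probe sets whose Entrez identifier was found in RefSeq had the same symbol there. A gene's value is its brightest probe set.

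The floor of 15.1 is the 40th percentile. Pairs of arrays were compared by size for probe sets above it on at least 1 array. The limma 3.58.1 fit (R 4.3.3) had a day term and a variance trend. Benjamini-Hochberg adjustment ran over the 14839 probe sets that exceeded the floor on 2 or more of 4 arrays. With 1 residual degree of freedom and a prior worth 49.8, p-values rest on the pooled spread. As each day and medium had 1 array, the residual is the change in the TGF-beta3 difference between days. The pooled spread holds such changes together with technical differences, and spread between cultures cannot be told apart from them. On simulated data for this comparison with 14839 probe sets the fit recovered 11.9% of log2 changes of 1, 64.2% of 2 and 100% of 4, and called 7 unchanged. The simulated noise was independent and normal, with the fit's own spread, no day difference and no floor. Those data thus followed the model being fitted, and the shares need not hold for the real arrays. Tables and plots were made in Python 3.11.15 (pandas 2.3.3, matplotlib 3.10.9). Members and lists were chosen with earlier results of these data known. Named genes were all members, list genes past the test (up to 4 per direction), each list's extremes, and the 3 closest profiles per member (signal of 100 or more on an array, log2 range of 2 or more). Alternatives covered scaling, floor, filter, threshold, probe set choice, variance prior, day term, the loaded array and each array left out.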

Additional observations from a re-analysis of the deposited data

Results flagged for a closer look

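SFRP4 and SFRP5 were listed because the signs of their differences between day 21 and day 42 were opposite in the 2 media. SFRP4 differed by log2 -2.91 (a bound) with TGF-beta3 and by 0.09 without it, which is 1.06-fold and short of any call. The latter was -0.10 under quantile normalization and -0.08 on the spike scale, so the opposite signs are not kept there. SFRP5 differed by log2 3.54 with TGF-beta3 and by -0.61 (a bound, short of 2-fold) without it. Each rests on 1 array per condition, and the difference between the media was not tested.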

How the results depend on the processing

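SFRP1 and SFRP4 passed in 16 of 17 alternatives, DKK1 in 9 of 14, FRZB in 8 of 17 and SFRP5 in 6 of 15, and all kept their direction in the fit. Where 3 members fell and 2 rose, the count that rose was 1 with the spikes as scale, with the floor at the 25th percentile, without the variance trend and with the loaded array added. None (0) rose under a floor at the 60th percentile or at a signal of 100, without the filter and without the day term, and 0 to 1 with 1 array left out, fits with no day term in which an arm has 1 array that is assumed to vary like the others. DKK1 could not be fitted without either TGF-beta3 array or with the floor at a signal of 100, nor SFRP5 with either higher floor. With the floor at a signal of 100, DKK1 and SFRP5 were thus both untested. Without the filter none of the 5 fell and 0 probe sets rose or fell, where the prior was 0.871 degrees of freedom. The 866 probe sets that rose and 1088 that fell were 488 that rose under median centring and 225 on the spike scale. They were 416 and 614 without the trend, 207 and 363 without the day term, and 161 to 1757 and 179 to 2016 with 1 array left out.

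Among counts by size, 4 members were higher under loading on the spike scale, 1 with the floor at the 60th percentile, 0 with the floor at 100, 1 at 3-fold, and 4 higher and 1 lower at 1.5-fold. At day 42 TGF-beta3 left 1 higher with either higher floor, and at day 21 none (0) with the floor at 100. Between days 21 and 42 with TGF-beta3, 1 was higher and 0 lower with that floor, and 3 were lower on the spike scale. From day 3 to day 21, 3 were higher on the spike scale, 2 with the floor at the 25th percentile or at 1.5-fold and 0 with the floor at 100. From day 21 to day 42 without TGF-beta3, 1 was higher under median centring and at 1.5-fold, and 1 lower on the spike scale, with the 25th percentile floor and at 1.5-fold. Over the same settings the genes higher at day 42 with TGF-beta3 numbered 465 to 2850 and those lower 632 to 3743. DKK3 turned to log2 -0.41 and WLS to -0.29 on the spike scale, PRICKLE1 to 0.23 with the median of its probe sets, and ROR2 to 0.09 when the loaded array replaced the unloaded one, and ranged from -0.72 to 0.43 with 1 array left out, at 0.26 and 0.43 without a day 42 array. Except where stated, the cause was not tested. The labels carry no replicate numbers to pair; the reported fit blocks by day, and the fit without that term is given above. Values near the floor limit DKK1 and SFRP5.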
